A study of Mus musculus with 18 samples.

Results

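The chemokine and chemokine receptor genes described here are those whose platform symbol marks a numbered member of either family, each read from its brightest probe. There were 54 of them, on 79 probes, among 19057 genes with a probe of 1 symbol and 45281 probes in all. Chemokines are small secreted proteins that guide migrating cells along gradients, and their receptors are 7-transmembrane proteins that signal through inhibitory G proteins. They are named CC, CXC, CX3C and XC after the spacing of their first cysteines. In the developing cerebellum Cxcl12 from the meninges, acting on Cxcr4, holds granule neuron progenitors at the surface, and Cx3cr1 is a receptor of microglia.

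Expression was measured on Illumina BeadChips in granule neuron progenitors (GNPs), the cells from which this medulloblastoma (MB) arises, and in MBs. NdpKO;Ptch+/- GNPs were from compound mutants, male Ndp-/y animals in the cross the submitters describe. The other GNPs were Ptch+/-, NdpKO or wild type (WT), with 4 arrays for each of the 4 genotypes, and 1 MB was NdpKO;Ptch+/- and 1 Ptch+/-. The study compared them to find genes that depend on Ndp, which encodes the secreted Fzd4 ligand Norrin. GNPs were taken at postnatal day 6. The labels give the MBs the same age, although the design describes them as dissected from symptomatic mice. The NdpKO allele is a germline disruption of the X-linked Ndp gene by a lacZ cassette, and Ptch+/- is a germline heterozygous loss, so both were present in all cells of the animal. The labels give WT and Ptch+/- animals as C57Bl/6 and NdpKO animals as mixed background. They give no background for the NdpKO;Ptch+/- arrays, except for replicate 2. That array is named NdpKO;Ptch+/- in its title but NdpKO in its genotype label, and it was grouped by title.

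All values are on the normalized log2 scale, on which every array had a median of 4.13 and a level of 5 lies near background. Between 23.0% and 23.9% of probes reached 5 on an array. Of the 12 GNP markers on the platform, 8 were at or above 5 on every array, with Zic1 at 12.83, 13.01, 12.81 and 12.81 on average in NdpKO;Ptch+/-, Ptch+/-, NdpKO and WT GNPs. Atoh1, Pax6, Gli1 and Mycn stayed below 5 in every group. The study detected Atoh1, Gli1 and Mycn in MBs by in situ hybridization. A reading below 5 therefore does not show that a transcript is absent. The Ndp probe read 4.10 to 4.13 on all arrays, WT included, so it could not check the knockout. Prm1 read 9.79 to 10.66 on the NdpKO;Ptch+/- GNP arrays, including the one with disagreeing labels (9.92), and 10.13 to 10.51 on the Ptch+/- GNP arrays, against 4.11 to 4.13 on the NdpKO and WT arrays. On the Prm1 probe the array with disagreeing labels thus read with the Ptch+/- arrays, as in its title, and apart from the NdpKO arrays. Ptch+/- replicate 3 alone had Xist, at 10.02. The arrays are bulk samples, in which fewer cells of a type and less RNA per cell cannot be told apart.

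The probes of most chemokine genes read at background. Of the 54, 10 (18.5%) had a mean of at least 5 in 1 or more of the 6 groups, against 40.5% when the brightest probe of every gene on the array was treated alike. In at least 1 GNP genotype the share was 6 of 54 (11.1%), against 37.7% of all genes. Those 6 were the CC ligands Ccl27a, Ccl3 and Ccl4, the CXC ligands Cxcl1 and Cxcl12, and the receptor Cxcr4, and all 6 passed in all 4 genotypes. A further 4 reached 5 in a tumour and in no GNP group: the receptor Cx3cr1 in both tumours, the ligands Ccl11 and Cxcl16 in the Ptch+/- tumour, and Ccl25 in the NdpKO;Ptch+/- tumour. By class, 5 of 22 CC ligands, 3 of 12 CXC ligands, 2 of 18 receptors, and neither the CX3C ligand Cx3cl1 nor the XC ligand Xcl1 passed. Another 43 genes were below 5 on every array, at 4.94 or less, and 40 of them never reached 4.5. The remaining gene, Ccl9, reached 5 on 1 array. The monocyte attractants Ccl2 and Ccl12, the neutrophil attractants Cxcl2 and Cxcl3, the interferon-induced Cxcl10, and Cxcl14 were among the 43. Cxcr7, under its newer name Ackr3, is an atypical receptor, and its group means were 4.10 to 4.11.

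**Figure D1:**
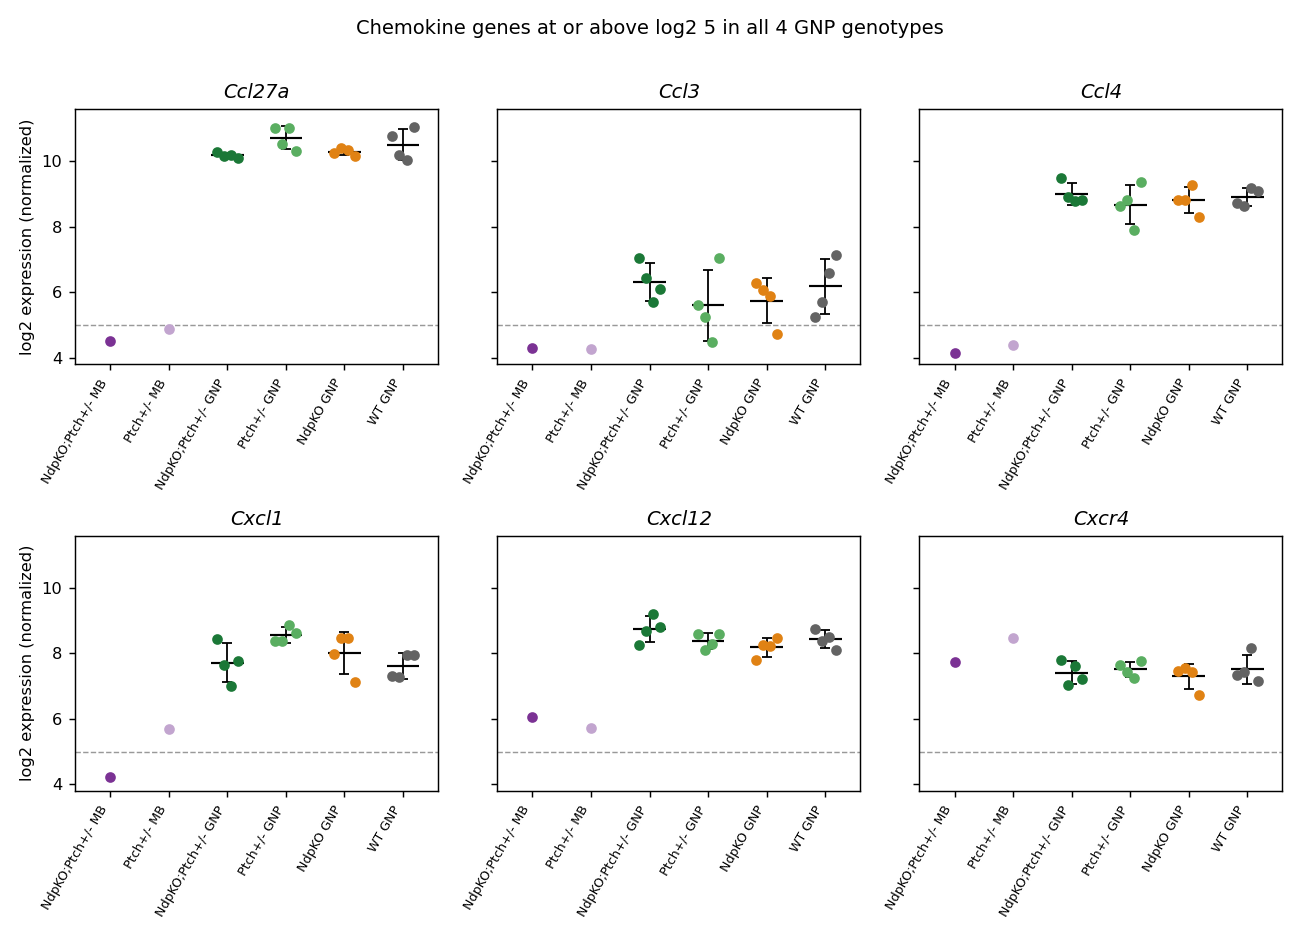
Normalized log2 expression on every array (dots) of the 6 genes at or above 5 in all 4 GNP genotypes, by group; bars are the mean and SD of 4 arrays, and the dashed line is level 5. Ccl27a, Ccl3 and Ccl4 sit above 5 in most GNP arrays and below it in both tumours, while Cxcr4 is at 6.74 or higher in all 6 groups.

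Among the CC ligands above background was Ccl27a. In human skin CCL27 is made by keratinocytes and attracts T cells through CCR10. Ccl27a read 10.28, 10.15, 10.21 and 10.11 in NdpKO;Ptch+/- GNPs, 11.01, 10.55, 11.04 and 10.33 in Ptch+/- GNPs, 10.24, 10.40, 10.34 and 10.17 in NdpKO GNPs, and 10.77, 10.21, 10.04 and 11.05 in WT GNPs. The Ptch+/- arrays all lay above the NdpKO;Ptch+/- arrays, while WT spanned the whole range of the 16 arrays. The gene overlaps Il11ra1 in the RefSeq annotation, which also lists a related gene of the same name, Ccl27b. Which probe sees which gene was not tested, so the signal may not be that of Ccl27a alone. Its second probe averaged 6.88 over the GNP arrays. Ccr10, its known receptor, did not exceed 4.11 on any array.

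Ccl3 and Ccl4 are inflammatory ligands made by activated macrophages and microglia, which attract leukocytes. Ccl4 read 9.51, 8.92, 8.80 and 8.81 in NdpKO;Ptch+/- GNPs, 8.63, 8.81, 7.90 and 9.36 in Ptch+/- GNPs, 8.82, 8.83, 9.28 and 8.30 in NdpKO GNPs, and 8.73, 8.65, 9.18 and 9.10 in WT GNPs. Ccl3 read 7.03, 6.43, 5.69 and 6.09 in NdpKO;Ptch+/- GNPs, 5.62, 5.24, 4.47 and 7.05 in Ptch+/- GNPs, 6.29, 6.07, 5.87 and 4.73 in NdpKO GNPs, and 5.26, 5.71, 6.59 and 7.15 in WT GNPs. All 4 genotypes overlapped for both genes, and the arrays lowest for Ccl4 were the lowest for Ccl3: Ptch+/- replicate 3 and NdpKO replicate 4. Over the 16 GNP arrays Ccl3 and Ccl4 varied together (Pearson's r = 0.861, p = 4.0e-05, adjusted p = 0.00108; Spearman's rho = 0.859, p = 3.0e-05, adjusted p = 0.00081; permutation tests, adjusted over 27 relations). The correlation was 0.743 without the 2 arrays farthest from the median and 0.847 after subtracting genotype means, and it was the only one of the 27 with an adjusted p below 0.05. The neighbouring genes overlap each other in the RefSeq annotation, so a shared source of signal was not tested. Ccr1, a receptor of Ccl3, stayed at or below 4.11 on all arrays.

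Markers of microglia and macrophages were set beside both genes. Of 18 listed microglia and macrophage markers 16 were on the platform, and their mean log2 level was 4.80 to 5.15 in NdpKO;Ptch+/-, 4.83 to 5.24 in Ptch+/-, 4.65 to 5.01 in NdpKO and 5.21 to 5.78 in WT GNPs. That level correlated with Ccl3 at r = 0.294 (rho = 0.156, 0.254 without the 2 farthest arrays, adjusted p = 0.665) and with Ccl4 at r = 0.184 (rho = 0, 0.285 without the 2 farthest arrays, adjusted p = 0.713), in permutation tests over the 16 arrays. From 3 to 7 of the 16 markers reached level 5 on a GNP array, with Laptm5, Fcrls, C1qb and C1qc above it on average in every genotype. P2ry12, Tmem119, Itgam and Ctss were near background in every group, tumours included.

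**Figure D2:**
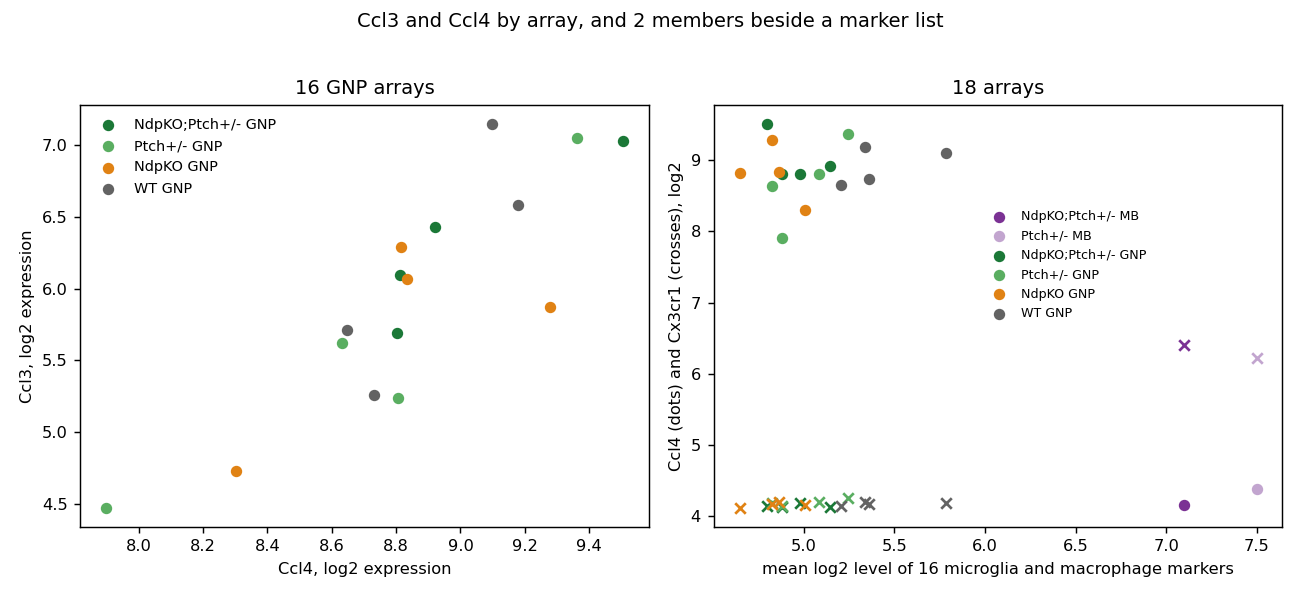
Left, Ccl3 against Ccl4 (both log2) on the 16 GNP arrays, coloured by genotype, which rise together (r = 0.861). Right, Ccl4 (dots) and Cx3cr1 (crosses) against the mean log2 level of 16 microglia and macrophage markers on all 18 arrays; the 2 tumours stand at 7.10 and 7.50 on the marker axis with Ccl4 near 4 and Cx3cr1 above 6.

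Cxcl1 attracts neutrophils through Cxcr2 and is a well-known NF-kappaB target in mouse and human cells. Cxcl1, Cxcl2 and Cxcl3 are close relatives that sit together on chromosome 5. To set the promoter of the gene that was read above background beside those that were not, the 120 bases before each start site are shown (RefSeq, GRCm38.p6, plus strand: chr5:90891125-90891244, chr5:90903779-90903898 and chr5:90785981-90786100), with an NF-kappaB-type motif (GGGA, any base, then TTTCC) in capitals.
Cxcl1: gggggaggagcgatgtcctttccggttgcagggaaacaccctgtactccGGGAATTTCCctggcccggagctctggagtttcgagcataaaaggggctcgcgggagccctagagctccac
Cxcl2: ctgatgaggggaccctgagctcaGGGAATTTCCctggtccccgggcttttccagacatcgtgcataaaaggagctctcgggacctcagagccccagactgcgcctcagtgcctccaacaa
Cxcl3: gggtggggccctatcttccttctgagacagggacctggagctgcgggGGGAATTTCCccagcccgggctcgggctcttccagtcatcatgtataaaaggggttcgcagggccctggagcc
All 3 hold the same 10 letters, 71 to 62 bases before the start in Cxcl1, 97 to 88 in Cxcl2 and 73 to 64 in Cxcl3. Of the 54 genes, 40 matched the promoter table, and 4 of them (Ccr3, Cxcl1, Cxcl2 and Cxcl3) held the motif on either strand in the 250 bases before to 50 after the start. Over all 32851 promoters 0.411% did. The match is a description of these letters, since binding was not measured.

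Cxcl1 read 8.45, 7.65, 6.99 and 7.78 in NdpKO;Ptch+/- GNPs, 8.38, 8.38, 8.88 and 8.64 in Ptch+/- GNPs, 7.99, 8.48, 8.47 and 7.12 in NdpKO GNPs, and 7.30, 7.27, 7.95 and 7.96 in WT GNPs. The Ptch+/- arrays were the tightest group and all lay above the WT arrays. Cxcl2 and Cxcl3 stayed below 5 on all 18 arrays, as did Cxcr2, which did not exceed 4.12.

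Cxcl12 and its receptor Cxcr4 were the only genes of the 54 above 5 on all 18 arrays. Cxcl12 read 8.26, 8.69, 9.22 and 8.80 in NdpKO;Ptch+/- GNPs, 8.58, 8.10, 8.28 and 8.60 in Ptch+/- GNPs, 7.80, 8.25, 8.23 and 8.46 in NdpKO GNPs, and 8.75, 8.38, 8.50 and 8.11 in WT GNPs. Cxcr4 read 7.79, 7.04, 7.62 and 7.22 in NdpKO;Ptch+/- GNPs, 7.64, 7.43, 7.24 and 7.76 in Ptch+/- GNPs, 7.47, 7.56, 7.43 and 6.74 in NdpKO GNPs, and 7.33, 7.44, 8.16 and 7.16 in WT GNPs. Every genotype overlapped every other for both genes. Cx3cr1 was above background in the tumours alone, and none of the remaining 16 receptors exceeded 4.17 on any array.

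The 4 GNP genotypes were compared to ask which genes depend on Ndp and on Ptch. With limma over all probes, in fits that share the arrays of the genotypes compared, none of the 54 genes was called at an adjusted p below 0.05 in NdpKO;Ptch+/- against Ptch+/- GNPs (0.0155% of all probes were), with 5 below an unadjusted 0.05. None was called in NdpKO against WT (0.307% of probes), with 5 below an unadjusted 0.05. The labels also give these groups different strain backgrounds, although the design says that compound mutants and their controls were bred in 1 cohort. The counts were 0 and 2 in NdpKO;Ptch+/- against NdpKO (0.00442% of probes), and 0 and 6 in NdpKO;Ptch+/- against WT (0.0508% of probes). The share of all probes below an unadjusted 0.05 was not taken. Unadjusted counts, here and below, are therefore not read as a result about these genes. Medians of the 54 log2 differences lay between -0.0006 and 0.0017 in these comparisons, and those of all probes between -0.0002 and 0.0003.

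In Ptch+/- against WT GNPs 1 of the 54 genes was called, Cxcl10, an attractant of activated T cells (1.09% of probes were called in this comparison). It read 4.18, 4.23, 4.30 and 4.22 in Ptch+/- GNPs, against 4.94, 4.45, 4.52 and 4.74 in WT GNPs. The groups did not overlap, and the difference was -0.43 ± 0.09 (SE, limma adjusted p = 0.0466), but every value was below 5, so no fold is given. The WT arrays were also the highest beside the 4.26 to 4.39 of NdpKO;Ptch+/- (difference -0.32 ± 0.09, limma adjusted p = 0.397), and overlapped the 4.20 to 4.45 of NdpKO GNPs. The call was lost in 7 of the 8 fits that left out 1 Ptch+/- or WT array. A further 6 genes had an unadjusted limma p below 0.05 here, again with no share over all probes beside them.

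The groups did not overlap for 1 of 54 genes (1.85%) in NdpKO;Ptch+/- against Ptch+/- GNPs, where 4.95% of all probes were so separated. The same held for 4 genes (7.41%) in Ptch+/- against WT (9.28% of probes) and for none in NdpKO;Ptch+/- against NdpKO (2.56% of probes). The shares were above those of the array for the 6 genes (11.1%) in NdpKO against WT (5.47% of probes) and the 5 genes (9.26%) in NdpKO;Ptch+/- against WT (3.63% of probes), which share the WT arrays. Apart from Ccl27a and Cxcl1, all genes counted here were below 5 in both groups, except Ccl9 through WT replicate 4.

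**Figure D3:**
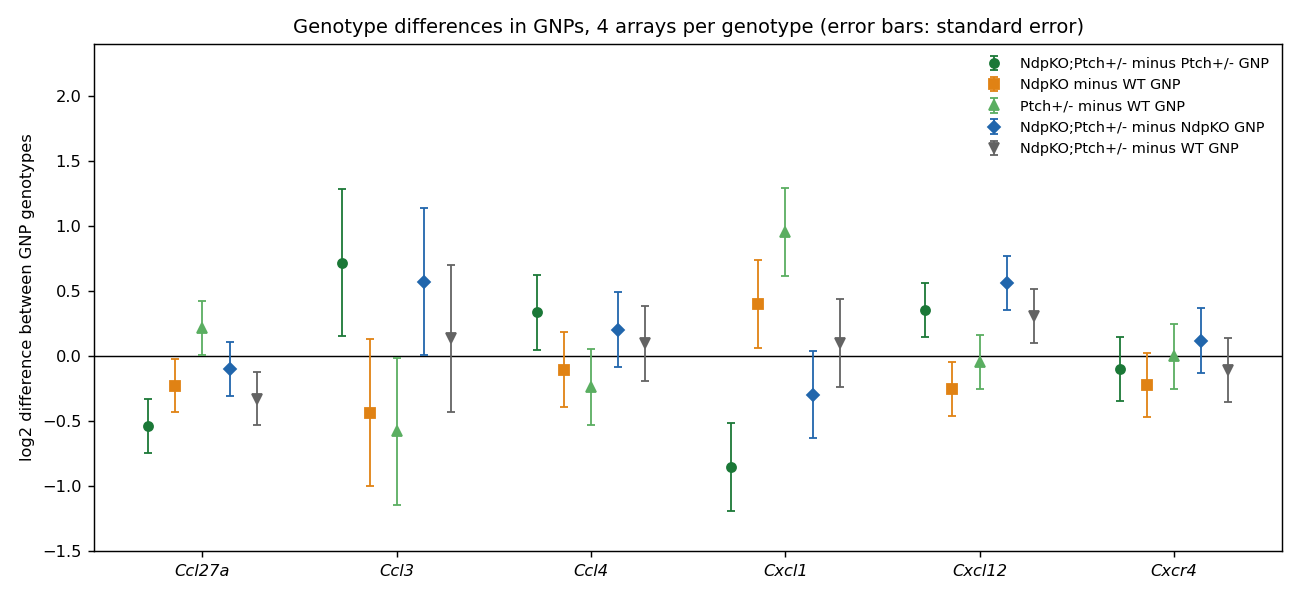
Log2 difference between GNP genotypes (points) with its standard error (bars) for the 6 genes above background, 4 arrays per genotype; the 5 comparisons share groups. No point has an adjusted p below 0.05, and the differences farthest from 0 are those of Cxcl1 in Ptch+/- minus WT (0.95) and NdpKO;Ptch+/- minus Ptch+/- (-0.85).

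Of the 6 genes above background, Cxcl1 had the differences farthest from 0. Its means were 7.72 ± 0.60 in NdpKO;Ptch+/-, 8.57 ± 0.24 in Ptch+/-, 8.02 ± 0.64 in NdpKO and 7.62 ± 0.39 in WT GNPs (SD, n = 4 arrays each). Neighbours in the order of these means overlapped. Ptch+/- minus WT was 0.95 ± 0.34 (SE, limma adjusted p = 0.222), and the compound mutant minus Ptch+/- was -0.85 ± 0.34 (limma adjusted p = 0.498). The test of whether the effect of Ndp loss differed with Ptch genotype gave -1.25 ± 0.48 (limma adjusted p = 0.267), and none of the 54 genes was called by it (0.495% of probes were; 4 genes were below an unadjusted 0.05). With 1 array left out at a time, the limma adjusted p for Cxcl1 was 0.0757 to 0.397. It passed, at -1.79 (limma adjusted p = 0.0136), when NdpKO;Ptch+/- replicate 1 and NdpKO replicate 4 were left out together. Those arrays had the highest Cxcl1 of the compound mutants and the lowest of the NdpKO GNPs, so that leaving them out enlarges the interaction by construction, and they were picked with earlier results of these data known.

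Ccl27a was lower in NdpKO;Ptch+/- than in Ptch+/- GNPs by 0.54 ± 0.21 on the log2 scale, with no overlap (-0.54, limma adjusted p = 0.474). Cxcl12 averaged 8.74 ± 0.39 in NdpKO;Ptch+/-, against 8.39 ± 0.25 in Ptch+/-, 8.18 ± 0.28 in NdpKO and 8.44 ± 0.27 in WT GNPs (SD, n = 4 each). The compound mutant exceeded NdpKO by 0.56 ± 0.21 (SE, limma adjusted p = 0.873) and Ptch+/- by 0.35 ± 0.21 (limma adjusted p = 0.689). The level of 17 endothelial markers, which was 6.15 to 7.36 in NdpKO;Ptch+/-, 5.95 to 6.54 in Ptch+/-, 5.93 to 6.88 in NdpKO and 6.53 to 7.50 in WT GNPs, correlated with Cxcl12 at r = 0.643 (rho = 0.694, 0.735 without the 2 farthest arrays, 0.612 within genotypes; permutation test, adjusted p = 0.0725) and with Cxcl1 at r = -0.636 (rho = -0.635, -0.746 without the 2 farthest arrays, -0.474 within genotypes; adjusted p = 0.0725). Neither passed the adjustment over 27 relations, and the part of endothelial cells in either gene was not tested.

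The remaining 3 genes above background were not called in any comparison of GNPs. NdpKO;Ptch+/- minus Ptch+/- was 0.72 ± 0.57 for Ccl3, 0.33 ± 0.29 for Ccl4 and -0.10 ± 0.25 for Cxcr4 (SE, limma adjusted p = 0.797, 0.823 and 0.951). With 4 arrays a genotype, a difference of 1 on the log2 scale in Ccl3 would lie within 2 standard errors.

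The tumours were set against the 8 GNP arrays of their own genotypes, to ask how the expression of these genes in MB differs from that in GNPs. Of the 54 genes 7 were called (12.96%), 3 higher and 4 lower, close to the 14.7% of all probes (8.61% higher and 6.06% lower). The median difference was -0.0026 over the genes and -0.0005 over all probes. The groups did not overlap for 5 genes higher and 10 lower, against 11.3% and 11.8% of probes. MBs came from symptomatic mice as dissected tissue rather than purified cells, with 1 array for each genotype, so that age, dissection and tumour cannot be told apart. For the same reason the standard errors and p-values of this comparison rest mostly on the spread of the GNP arrays, not of tumours.

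All 4 genes called lower were ligands that the GNP arrays had above background. Ccl27a read 4.501 in the NdpKO;Ptch+/- tumour and 4.88 in the Ptch+/- tumour, against a mean of 10.46 in GNPs, a difference of -5.77 ± 0.18 (SE, limma adjusted p = 4.56e-07). With the tumours set to level 5, it was at least 44.0-fold lower. Its second probe differed by -2.70 ± 0.44 (limma adjusted p = 0.00487).

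Ccl4 read 4.15 in the NdpKO;Ptch+/- tumour and 4.38 in the Ptch+/- tumour, against a mean of 8.84 in GNPs, and was at least 14.3-fold lower (-4.58 ± 0.36, limma adjusted p = 9.58e-05). Its second probe, near background at 4.61 in GNPs, differed by -0.59 ± 0.33 (limma adjusted p = 0.338). Ccl3 read 4.28 and 4.26 in the NdpKO;Ptch+/- and Ptch+/- tumours, against a mean of 5.95 in GNPs, and with -1.68 ± 0.62 was not called (limma adjusted p = 0.129). The tumours were below all 8 GNP arrays for both genes. Ccl3 passed in 3 of the other settings, among them the fit against all 16 GNP arrays (-1.69, limma adjusted p = 0.0494).

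Cxcl1 read 4.23 in the NdpKO;Ptch+/- tumour and 5.68 in the Ptch+/- tumour, against a mean of 8.14 in GNPs (-3.19 ± 0.34, limma adjusted p = 0.000506). No fold is given, since the mean of the tumours, 4.96, was below level 5. Cxcl12 read 6.06 in the NdpKO;Ptch+/- tumour and 5.71 in the Ptch+/- tumour, against 8.57 in GNPs, and was 6.42-fold lower (-2.68 ± 0.23, limma adjusted p = 0.000166). Of its 4 other probes, the 2 above background differed by -2.91 ± 0.22 and -3.19 ± 0.18 (limma adjusted p = 7.94e-05 and 1.52e-05), and the rest were at background. The 17 endothelial markers averaged 5.66 in the NdpKO;Ptch+/- tumour and 5.29 in the Ptch+/- tumour, below all 8 of these GNP arrays, with 4 of the 17 called lower and none higher. The 17 meningeal fibroblast and mural markers averaged 5.72 in the NdpKO;Ptch+/- tumour, within the range of these GNP arrays. In the Ptch+/- tumour they averaged 5.26, below that range. Of these markers 4 were called lower (Dcn, Lum, Rgs5 and Col3a1) and 3 higher (Pdgfra, Cspg4 and Abcc9). The calls of Col3a1 and Abcc9 lay within background. Over all probes 6.06% were called lower and 8.61% higher. The part of either cell group in the lower Cxcl12 was not tested.

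The receptor Cxcr4 was not called. It read 7.73 in the NdpKO;Ptch+/- tumour and 8.47 in the Ptch+/- tumour, against 7.47 in GNPs (0.63 ± 0.24, 1.55-fold, limma adjusted p = 0.136). The NdpKO;Ptch+/- tumour lay within the GNP range and the Ptch+/- tumour above it. With probes dim on all arrays left out of the adjustment the same difference had a limma adjusted p of 0.0409.

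**Figure D4:**
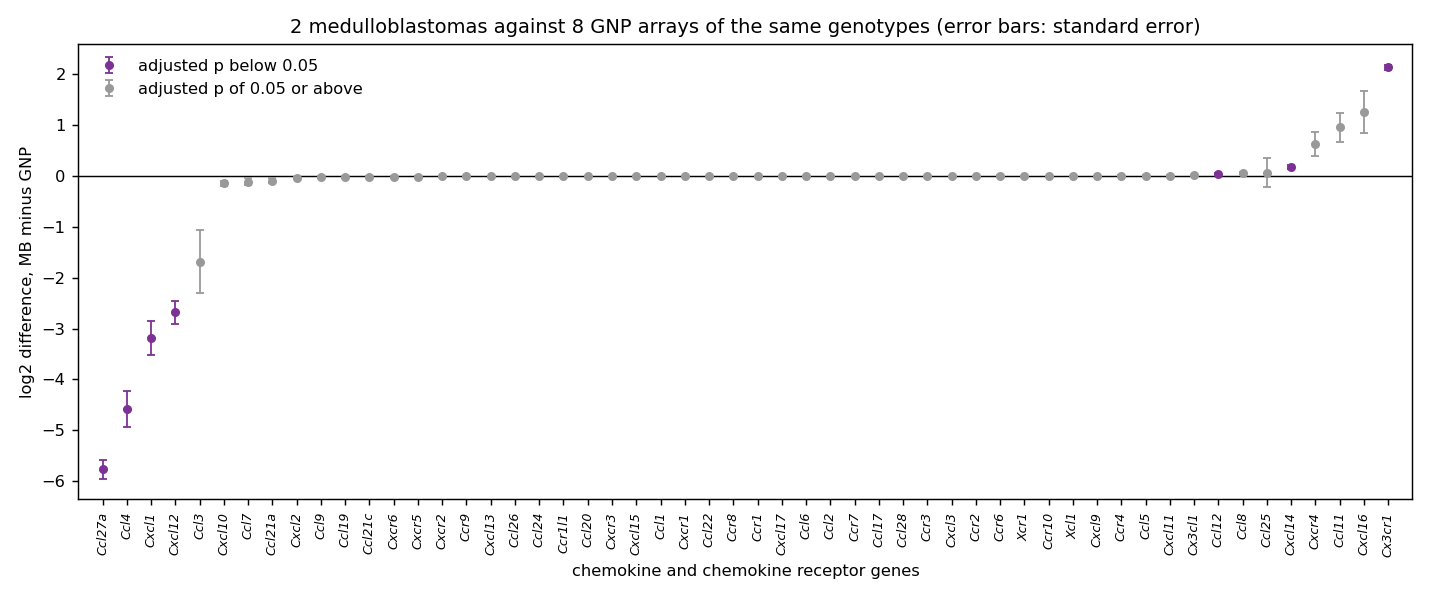
Log2 difference between the 2 MBs and the 8 GNP arrays of the same genotypes (points) with its standard error (bars) for all 54 genes, in order; purple points have a limma adjusted p below 0.05. Most genes sit at 0, 4 ligands are called between -5.77 and -2.68, and Cx3cr1 is called at 2.14.

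The gene with the smallest p of the 54 was Cx3cr1, the receptor of Cx3cl1. It read 6.40 in the NdpKO;Ptch+/- tumour and 6.22 in the Ptch+/- tumour, against 4.12 to 4.25 on the 16 GNP arrays. It was at least 2.48-fold higher in MBs (2.14 ± 0.05, SE, limma adjusted p = 7.40e-08). The GNP arrays were at background with little spread (SD 0.02 in NdpKO;Ptch+/- and 0.05 in Ptch+/-). With 1 tumour for each genotype, this SE and p rest mostly on that spread. The microglia and macrophage markers averaged 7.10 in the NdpKO;Ptch+/- tumour and 7.50 in the Ptch+/- tumour, above the 4.65 to 5.78 of the GNP arrays. Of the 16 markers, 12 were called higher in MBs and none lower, where 8.61% of all probes were called higher. The call of Ctss lay within background. Trem2 read 8.17 and 8.40 in the NdpKO;Ptch+/- and Ptch+/- tumours, against 4.20 to 4.79 on average in the GNP genotypes. The part of microglia and macrophages in the Cx3cr1 difference was not tested. The 14 markers of other leukocytes averaged 4.12 and 4.13 in the tumours, against 4.12 to 4.28 in GNPs. Cx3cl1 itself read 4.11 to 4.16 on all arrays.

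Ccl12 and Cxcl14 were also called higher in MBs, but within background. Ccl12 averaged 4.17 in MBs and 4.13 in GNPs (limma adjusted p = 0.0387), and lost the call in 8 of the 10 fits that left out 1 array. Cxcl14, a ligand made in several epithelia, read 4.48 in the NdpKO;Ptch+/- tumour and 4.24 in the Ptch+/- tumour, against 4.18 on average in GNPs (limma adjusted p = 0.0233). No fold is given for either.

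**Figure D5:**
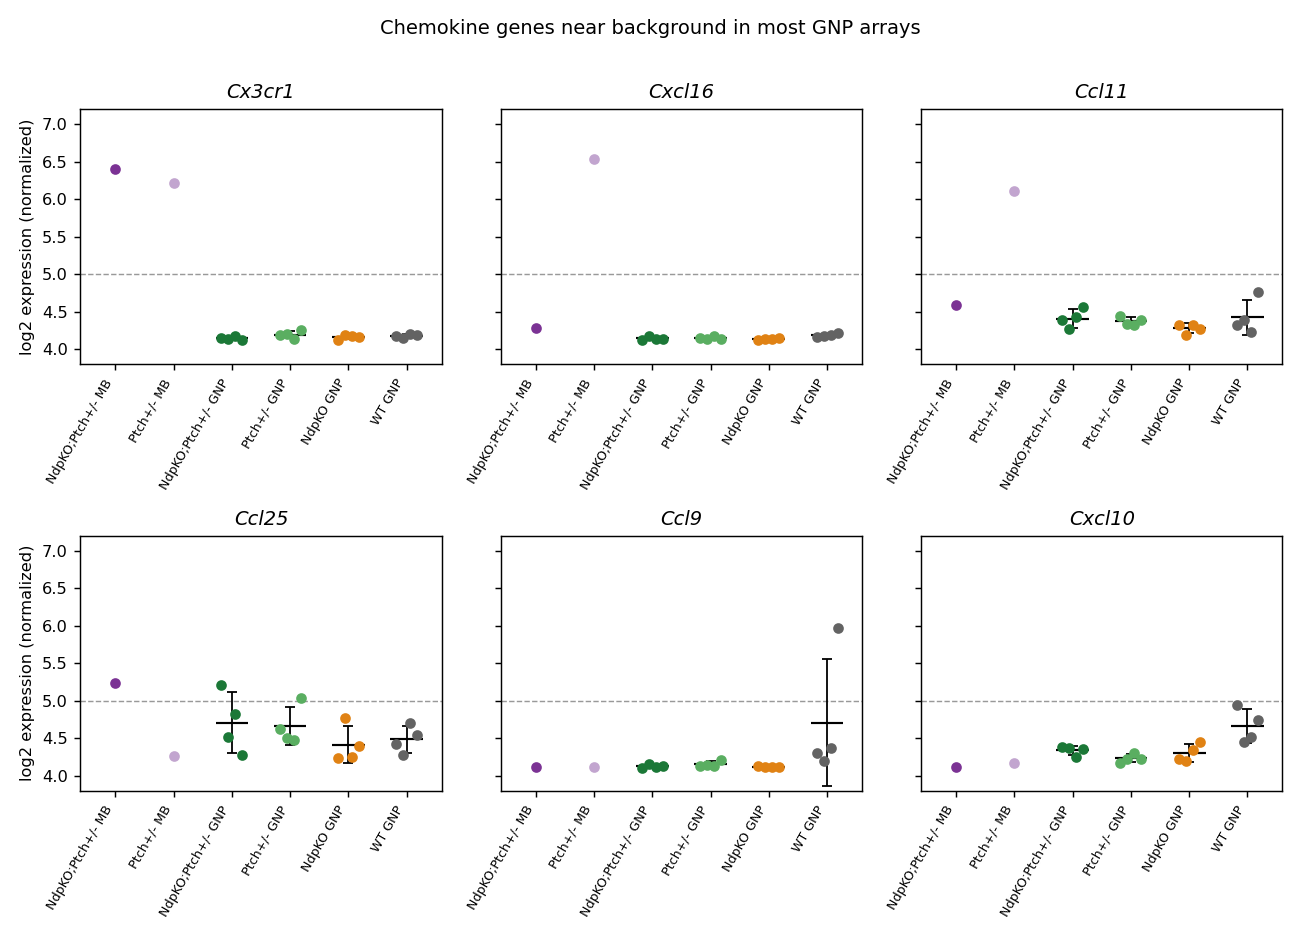
Normalized log2 expression on every array (dots) of 6 genes near background in most GNP arrays, by group; bars are the mean and SD of 4 arrays, and the dashed line is level 5. Cx3cr1 is above 6 in both tumours, Cxcl16 and Ccl11 in the Ptch+/- tumour, and WT replicate 4 stands apart at 5.97 for Ccl9.

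The tumours were also set against each other. With 1 array each there is no test, and a difference of 1 on the log2 scale with the higher tumour at or above 5 served as the mark. It was passed by 3 of the 54 genes, all lower in the NdpKO;Ptch+/- tumour, against 3.52% of all probes (1.79% lower and 1.73% higher). Cxcl16, which exists as a membrane-bound and a secreted ligand of Cxcr6, read 4.28 in the NdpKO;Ptch+/- tumour and 6.54 in the Ptch+/- tumour (-2.26), against 4.12 to 4.21 on the GNP arrays. Ccl11, the eotaxin that attracts eosinophils through Ccr3, read 4.59 and 6.11 in the NdpKO;Ptch+/- and Ptch+/- tumours (-1.52), against 4.19 to 4.77 in GNPs. Cxcl1 differed by -1.45.

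The differences of Cxcl16 and Ccl11 from GNPs rested on the Ptch+/- tumour. Cxcl16 differed by 1.26 ± 0.41 with both tumours (limma adjusted p = 0.0865). It differed by 2.38 without the NdpKO;Ptch+/- tumour and by 0.14 without the Ptch+/- tumour. Ccl11 differed by 0.96 ± 0.29 with both tumours (limma adjusted p = 0.0689), by 1.74 without the NdpKO;Ptch+/- tumour and by 0.18 without the Ptch+/- tumour. These single-tumour values are given with no test, because 1 array has no spread of its own. Cxcl16 overlaps Zmynd15 in the RefSeq annotation.

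Ccl25, a ligand of Ccr9 known from thymus and small intestine, went the other way, at 5.23 in the NdpKO;Ptch+/- tumour and 4.27 in the Ptch+/- tumour, a difference of 0.96. Of the GNP arrays NdpKO;Ptch+/- replicate 1 (5.21) and Ptch+/- replicate 4 (5.03) also reached 5, so the higher tumour was close to the top of the GNP range. Cxcr4 differed between the tumours by -0.73, Ccl27a by -0.37 and Cxcl12 by 0.34.

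Atypical receptors bind chemokines without G protein signalling. The list of 7 atypical and related receptors also holds Ccr7, one of the 54 genes, and Cmklr1, which both signal through G proteins. Of the 7 only Ackr1 was above background, at means of 9.95, 10.14, 10.10 and 9.92 in NdpKO;Ptch+/-, Ptch+/-, NdpKO and WT GNPs, and at 9.69 and 9.51 in the NdpKO;Ptch+/- and Ptch+/- tumours. It overlaps Cadm3, a neuronal adhesion gene, in the RefSeq annotation, and the source of its signal was not tested. Ackr3, the scavenger of Cxcl12, was at background. None of the 7 was called between GNP genotypes, and Ackr2 was called lower in MBs within background (-0.20).

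Of 23 genes of receptor signalling and desensitisation on the platform, 9 to 11 were at or above 5 on an array. In MBs 2 were called higher and 5 lower than in GNPs, where 8.61% and 6.06% of all probes were. The inhibitory G protein subunit Gnai2 rose by 0.96 ± 0.06 and the arrestin Arrb2 by 0.45 ± 0.07 (SE, limma adjusted p = 2.07e-05 and 0.00519). The lower genes were Rgs16, which shortens G protein signals (-3.15 ± 0.20), the G protein subunits Gng2 (-2.55 ± 0.27) and Gnai1 (-1.58 ± 0.20), and the Rac pathway genes Elmo1 (-1.39 ± 0.18) and Rac1 (-0.38 ± 0.07). Between GNP genotypes Gng2 alone was called, higher in Ptch+/- than in WT (0.64 ± 0.12, limma adjusted p = 0.0302), with an interaction of -0.91 ± 0.17 (limma adjusted p = 0.0473).

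Among 15 genes on a list drawn up for chemokine processing and presentation, 3 were called higher and 3 lower in MBs, where 14.7% of all probes were called. Mmp2, a protease that can cleave Cxcl12, read 7.69 in the NdpKO;Ptch+/- tumour and 8.18 in the Ptch+/- tumour, against GNP means of 4.51 in NdpKO;Ptch+/- and 5.17 in Ptch+/- (3.10 ± 0.16, limma adjusted p = 8.34e-06). Mmp14, which activates Mmp2, rose by 0.94 ± 0.18 and the heparan sulphate carrier Sdc2 by 0.57 ± 0.12. Sdc3 and Gpc1, also heparan sulphate carriers, were lower (-0.50 ± 0.08 and -0.46 ± 0.07), as was the adhesion gene Cxadr (-0.76 ± 0.17). In GNPs the single call was Sdc4, at means of 4.73 in Ptch+/- and 6.50 in WT (-1.77 ± 0.37, limma adjusted p = 0.0462).

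Of 19 genes of the NF-kappaB and interferon responses, inducers and induced genes alike, 2 were called higher and 4 lower in MBs, against the same 14.7% of probes. Of the 6 calls 2, those of Tlr4 and Tnfaip3, lay within background. The NF-kappaB inhibitor Nfkbia (-1.35 ± 0.15), its relative Nfkbiz (-2.18 ± 0.36) and the transcription factor Irf1 (-1.33 ± 0.22) were lower, and the interferon-induced Ifit3 was higher (1.38 ± 0.31). Ifit3 read 4.68 in the NdpKO;Ptch+/- tumour and 6.41 in the Ptch+/- tumour, while the interferon-induced Ifit1, Irf7 and Isg15 were at background in both. In GNPs the Toll-like receptor Tlr2 was lower than in WT in all 3 mutants: its means were 4.498 in NdpKO;Ptch+/-, 4.42 in Ptch+/- and 4.32 in NdpKO, against 6.16 in WT (-1.66, -1.74 and -1.84, each ± 0.18, limma adjusted p = 0.00458, 0.00182 and 0.00261). These 3 comparisons share the WT arrays, which also had the highest microglia and macrophage marker levels of the GNP genotypes on average, and the part of those cells in the Tlr2 difference was not tested. Tlr2 was also called for the interaction of Ndp loss and Ptch+/- (1.91 ± 0.26, SE, limma adjusted p = 0.0136), with the means of all 3 mutants below 5. No other gene of this list was called between GNP genotypes.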

How the data were processed

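Total RNA of 16 GNP samples and 2 MBs was hybridised to Illumina MouseWG-6 v2 arrays. Values were deposited in log2 units: the authors processed BeadStudio output with limma's neqc, which corrects background with control probes, normalizes quantiles between arrays and takes log2. No version is given for these steps in the sources used here. Background correction could not be repeated, slides were not given, and the number of arrays limits the precision. Probes were named from the platform annotation: 34885 had 1 symbol, 18 several and 10378 none. Members and lists were chosen with earlier results of these data known.

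Each gene was read from the probe with the highest mean over 18 arrays (20 of 54 genes had more than 1). Models were fitted over all 45281 probes with limma 3.58.1 in R 4.3.3 (1 mean per genotype over 16 GNP arrays; for tumours, tissue with genotype as covariate over 10 arrays), two-sided, with Benjamini-Hochberg adjustment and a threshold of 0.05. Each GNP array was from a different animal per the study, so p-values between GNP genotypes measure the spread between animals. In the tumour fit, with 1 tumour for each genotype, they rest mostly on the spread of the GNP arrays. Folds against a group with every array below level 5 use 5. Correlations used 100000 permutations in SciPy 1.17.1. The models were tested on simulated data. Genes named were those with a group mean of at least 5, those called in a comparison, a list of 14 chemokine genes named whatever their values, and genes of 4 pathway lists. Other members and Ccl9 were named after their values were seen.

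Alternatives were cyclic loess, a filter on dim probes, a floor at 5, eBayes with trend and robust settings, array weights, levels of 4.5 and 5.5, leaving out each array, leaving out NdpKO;Ptch+/- replicate 1 and NdpKO replicate 4, counting the array with disagreeing labels as NdpKO, replicate numbers as a block, and tumours against all 16 GNP arrays. The numbers did not pair arrays: over 24 pairs of arrays with the same number the median correlation of their deviations from group means was -0.041, with 3 pairs over 0.1.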

Additional observations from a re-analysis of the deposited data

Results flagged for a closer look

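In 3 of 56 groups of 4 arrays, over 14 genes, 1 array lay far from the rest by Dixon's criterion, where chance alone marks about 1 in 20 groups. Ccl4 read 9.51 on NdpKO;Ptch+/- GNP replicate 1, with the other arrays of that genotype between 8.80 and 8.92. Cxcr4 read 6.74 on NdpKO GNP replicate 4, with the others between 7.43 and 7.56. Ccl9, a macrophage ligand, read 5.97 on WT GNP replicate 4, with the others between 4.20 and 4.37, and was below 4.4 on all other arrays. It was among the 14 genes only through this reading, so its flag cannot be set against the chance rate.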

How the results depend on the processing

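The count of genes called in Ptch+/- against WT GNPs rested on Cxcl10 near the threshold. It was 0 with cyclic loess, with the filter on dim probes, with values below 5 set to 5, and with NdpKO;Ptch+/- replicate 2 moved to NdpKO by its genotype label. It was also 0 with replicate numbers as a block, although these did not pair the arrays. It was 0 to 1 when 1 array was left out, 2 without NdpKO;Ptch+/- replicate 1 and NdpKO replicate 4, and 3 with trend and robust eBayes. The interaction had 1 gene called, Cxcl1, without those 2 arrays. Tumours against all 16 GNP arrays gave 11 genes called instead of 7, and leaving out 1 array gave 6 to 9. The block changed no other count of calls. The counts of genes called in the other GNP comparisons were 0 under every alternative run. Differences that changed sign were all far from called. In MBs against GNPs, Ccl25 was -0.46 with cyclic loess and -0.39 to 0.52 with 1 array left out. In NdpKO;Ptch+/- against Ptch+/- GNPs, with 1 array left out, Ccl11 was -0.0153 to 0.0825, Ccl12 -0.0046 to 0.0092, Ccl25 -0.12 to 0.19 and Cxcr4 -0.227 to 0.0238. There Ccl12 was -0.0011 and Ccl25 -0.0230 with array weights, Ccl12 was -0.0043 and Ccl25 -0.12 without the 2 arrays, and Cxcr4 was 0.0238 with NdpKO;Ptch+/- replicate 2 moved to NdpKO. The causes of these changes were not tested. The tumours are 1 array for each genotype, and values below 5 have no reliable order.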
